A study of Mus musculus with 16 samples.

Results

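The genes described here are the conjugating enzymes, esterases and aldehyde dehydrogenases of the mouse kidney. They were chosen by symbol alone, as every row named for a cytosolic or mitochondrial glutathione S-transferase (Gst followed by a class letter), a UDP-glycosyltransferase (Ugt), a sulfotransferase (Sult), a carboxylesterase (Ces), a flavin-containing monooxygenase (Fmo), an aldehyde dehydrogenase (Aldh) or an N-acetyltransferase (Nat). This gave 83 of the 18132 genes on the array, with 20 glutathione S-transferases (4 alpha, 6 mu and 10 of other classes), 16 UDP-glycosyltransferases, 10 sulfotransferases, 4 carboxylesterases, 5 flavin-containing monooxygenases, 19 aldehyde dehydrogenases and 9 N-acetyltransferases. The symbol matched a current RefSeq gene for 75 of them and a single synonym for another 5 (Ces1g, Ces2a, Ces2e, Naa50 and Naa60). The remaining 3 symbols each fit more than 1 gene and are given as the file spells them: CES3, which is an older name of both Ces1d and Ces3a, NAT5 and NAT6.

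Whole kidney RNA was hybridised to Illumina BeadChips, 1 array per kidney. The study asked how the early response of the kidney to unilateral ureteral obstruction (UUO), in which the ureter of a single kidney is closed, differs in mice that lack the alarmin interleukin-33. The obstructed group, taken 24 h after UUO, held 7 wild type (WT) and 5 IL-33-deficient (Il33-/-) kidneys. There were 2 control kidneys of either genotype. The methods give the strain as C57BL/6J BomTac (B6JBOM). The deletion of Il33 is in every cell of the animal from birth, the methods give an age of 8 weeks unless stated otherwise, and what was done to the control animals is not described in the labels. The obstructed kidneys came from separate sets of mice: set 1 had 3 WT and 2 IL-33-deficient animals, set 2 had 4 and 3 of them, and the set of the controls is not stated. A kidney is referred to by its label's number. Each kidney was labelled as a separate sample and nothing further ties them to litters or cages, so the p-values measure the spread between these samples only.

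Many of these enzymes make foreign and endogenous compounds easier to excrete. The choice by symbol also took in genes with another role, such as Naa60, which acetylates proteins. Monooxygenases and esterases add or expose a reactive group, aldehyde dehydrogenases oxidise toxic aldehydes to acids, and transferases then attach glutathione, a sugar, sulfate or an acetyl group. In the kidney most of them are enriched in the proximal tubule, where the same families also take part in the breakdown of amino acids, in retinoic acid synthesis and in the defence against lipid peroxides. The glutathione S-transferases of the alpha and mu classes are classical targets of the stress-responsive factor Nrf2, which binds antioxidant response elements, and of the aryl hydrocarbon receptor, which binds xenobiotic response elements.

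The promoters of 4 glutathione S-transferases are shown because these genes moved in opposite directions after UUO: Gsta1, Gsta2 and Gstm5 had higher, and Gstm2 had lower, intensities in obstructed kidneys. Each sequence runs 5′ to 3′ on the strand of the gene, from 250 bases before the RefSeq start site to 30 bases after it, in GRCm38.p6. Capitals mark the core of the xenobiotic response element (GCGTG, or CACGC where it lies on the other strand) and of the antioxidant response element (TGACNNNGC). Gsta1 lies at chr9:78230419-78230698 on the plus strand, Gsta2 at chr9:78347116-78347395 on the minus strand, Gstm5 at chr3:107895604-107895883 on the plus strand and Gstm2 at chr3:107986391-107986670 on the minus strand.
Gsta1: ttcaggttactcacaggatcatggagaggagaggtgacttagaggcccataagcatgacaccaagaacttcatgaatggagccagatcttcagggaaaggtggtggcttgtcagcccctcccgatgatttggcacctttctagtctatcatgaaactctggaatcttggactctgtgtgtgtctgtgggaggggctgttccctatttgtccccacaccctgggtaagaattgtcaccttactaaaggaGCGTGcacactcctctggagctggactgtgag
Gsta2: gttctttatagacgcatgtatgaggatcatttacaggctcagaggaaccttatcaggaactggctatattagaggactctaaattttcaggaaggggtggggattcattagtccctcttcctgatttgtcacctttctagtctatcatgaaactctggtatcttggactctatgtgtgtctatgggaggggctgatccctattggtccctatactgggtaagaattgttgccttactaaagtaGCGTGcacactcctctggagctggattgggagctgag
Gstm5: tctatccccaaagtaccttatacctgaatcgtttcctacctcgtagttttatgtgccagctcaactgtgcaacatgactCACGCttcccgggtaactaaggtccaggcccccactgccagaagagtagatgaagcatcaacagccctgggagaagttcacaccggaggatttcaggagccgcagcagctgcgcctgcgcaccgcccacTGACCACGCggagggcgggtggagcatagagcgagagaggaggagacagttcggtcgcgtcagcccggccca
Gstm2: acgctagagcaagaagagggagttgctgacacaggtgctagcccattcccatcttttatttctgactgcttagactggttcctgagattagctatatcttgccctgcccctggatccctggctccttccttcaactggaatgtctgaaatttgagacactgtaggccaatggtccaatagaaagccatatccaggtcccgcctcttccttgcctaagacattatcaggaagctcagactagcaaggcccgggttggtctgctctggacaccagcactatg
The Gsta1 and Gsta2 windows were close copies, identical at 210 of 269 aligned bases (78.1%), and held the xenobiotic core across the start site (Gsta1) or just before it (Gsta2). In Gstm5 the antioxidant core overlapped a match of the xenobiotic core, and a second xenobiotic core lay further upstream. The Gstm2 window held neither motif.

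Of all 32851 RefSeq promoters of this length, 32.4% held the xenobiotic core and 12.4% the antioxidant core on either strand. Among the 81 promoters of the 66 members that had any, the shares were 24.7% and 6.17%. The members that rose after UUO in either genotype had 14 promoters, of which 8 (57.1%) held the xenobiotic core, in Aldh18a1, Aldh1a2, Gsta1, Gsta2, Gstm1, Gstm5 and Gstp1, and 2 (14.3%) held the antioxidant core, in Aldh1a2 and Gstm5. The members that fell had 19 promoters, with the xenobiotic core in 6 (31.6%) and the antioxidant core in 1 (5.26%), that of Naa60. A partial site of the tubular factor HNF1 (GTTAAT) was found in 7.1% of all promoters and in 10.5% of those of lowered members, namely Sult1d1 and Ugt3a1. A site of HNF4, another factor of kidney and liver (CAAAGTCCA), present in 0.475% of all promoters, was found in 0 of the 14 and 0 of the 19. These matches describe the letters of the windows and no more.

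The genotype was checked first. Il33 lay at log2 intensities of 7.62 and 8.02 in the WT controls and between 8.39 and 9.57 in the WT obstructed kidneys, while all 7 IL-33-deficient kidneys lay between 6.80 and 7.02. The intensities deposited for each array ran from about 95.5 to 23471 with array medians of 132 to 133, so 95.5 is background and the fold changes of dim genes are compressed. Kidney 3820, a WT obstructed kidney of set 1, had the lowest Havcr1 (KIM-1, the classical gene of the injured proximal tubule) of its group, with 10.42 against a median of 13.50 over the 7 WT obstructed kidneys and 7.22 and 7.24 in the WT controls. For 8 proximal tubule markers (of 10 listed) the summed linear intensity was 66568 to 70613 in WT controls and 68578 to 70336 in IL-33-deficient controls. It was 27271 to 62374 in WT obstructed kidneys, the highest being kidney 3820, and 20938 to 32197 in IL-33-deficient obstructed kidneys, the highest being kidney 3899. In whole tissue, fewer cells of a type and less RNA per cell cannot be told apart. Of these 8 markers 1 fell in WT and 6 in IL-33-deficient kidneys, while all 5 measured markers of the injured tubule rose in both. Liver, adrenal and fat markers gave 0 calls by limma after UUO in either genotype, but the 3 measured liver markers summed to 1073 in WT obstructed kidney 3818 and to 341 to 371 in the other 15 kidneys.

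UUO lowered more of these genes than it raised. In WT kidneys 14 of the 83 fell and 9 rose (adjusted p under 0.05, limma), where 8.22% of all genes on the array fell and 6.97% rose. In IL-33-deficient kidneys 21 fell and 8 rose, against 11.2% and 10.6% of all genes. The median log2 difference of the 83 was -0.04 in WT and -0.05 in IL-33-deficient kidneys, where that of all genes rounded to 0 in both. Most of the members that did not change were close to background: 32 of the 83 belonged to the dimmer 50% of genes (mean log2 intensity under 7.05), and Ugt1a2 was the single call among them. Among the 51 brighter members, 14 fell and 8 rose in WT (15.3% and 13.6% of all brighter genes), and 21 fell and 8 rose in IL-33-deficient kidneys (20.8% and 20.4%).

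The WT and IL-33-deficient comparisons share no array. Of the genes that fell, 13 did so in both, which is 92.9% of the WT and 61.9% of the IL-33-deficient calls, and of those that rose 5 did so in both (55.6% and 62.5%). All 21 lowered and all 8 raised genes of the IL-33-deficient kidneys had the same sign in WT. Overlap and signs were not counted over all genes, so this agreement is not shown to be particular to these members. The counts depended on single kidneys, as did those of all genes. Without control kidney 3811 WT gave 5 lower and 3 higher members, where all 18132 genes gave 593 and 458. Without control kidney 3812 it gave 6 and 2, where all genes gave 442 and 367. Lower members numbered 9 without kidney 3894 and 24 without kidney 3820, where 1304 and 1867 of all genes were lower. With every kidney 1491 of all genes were lower and 1263 higher in WT. In IL-33-deficient kidneys 13 members fell without control kidney 3813, where 1221 of all genes did, against 2039 with every kidney. Every fit that left out 1 kidney called Aldh3a2, Aldh4a1 and Fmo5 lower and Gstm5 and Gsto1 higher in WT. In the IL-33-deficient kidneys 11 lowered genes (Aldh16a1, Aldh3a2, Aldh4a1, Aldh5a1, Aldh8a1, CES3, Fmo5, Gstz1, Ugt3a1, Ugt3a2 and Ugt8a) and 5 raised genes (Aldh1a2, Gsta1, Gsta2, Gstm5 and Gsto1) were called in every such fit.

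**Figure D1:**
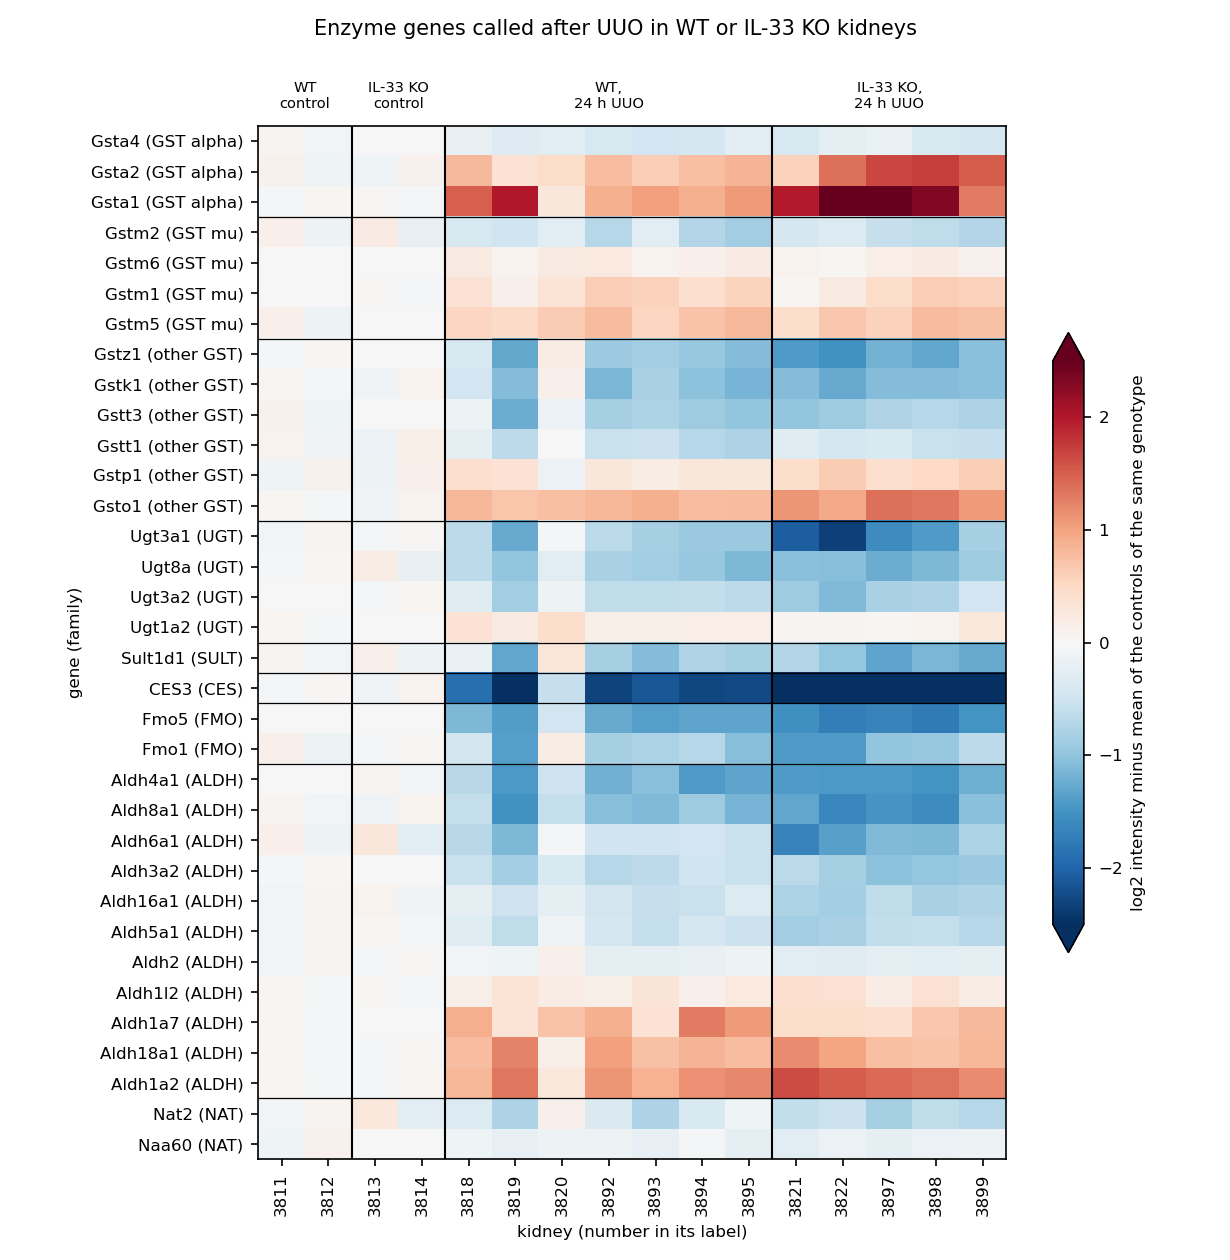
Log2 intensity of the 34 members called after UUO in either genotype, relative to the same genotype's control mean, with 1 column per kidney (2 WT controls, 2 IL-33-deficient controls, 7 WT and 5 IL-33-deficient obstructed kidneys) and 1 row per gene, ordered by family; colours end at the limits of the scale. The glutathione S-transferases, UDP-glycosyltransferases and aldehyde dehydrogenases hold lowered (blue) and raised (red) genes and the other families lowered ones only, 22 and 12 in all, and WT kidney 3820 is the palest obstructed kidney for many of them.

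Over the 4 groups together, every obstructed kidney lay below every control kidney for 10 of the 83 members (12%, against 6.47% of all genes): Aldh16a1, Aldh3a2, Aldh4a1, Aldh5a1, Aldh8a1, CES3, Fmo5, Gsta4, Gstm2 and Gstt3. Every obstructed kidney lay above every control for 11 members (13.3%, against 6.15%): Aldh18a1, Aldh1a2, Aldh1a7, Aldh1l2, Gsta1, Gsta2, Gstm1, Gstm5, Gstm6, Gsto1 and Ugt1a2. All 21 were among the called genes.

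**Figure D2:**
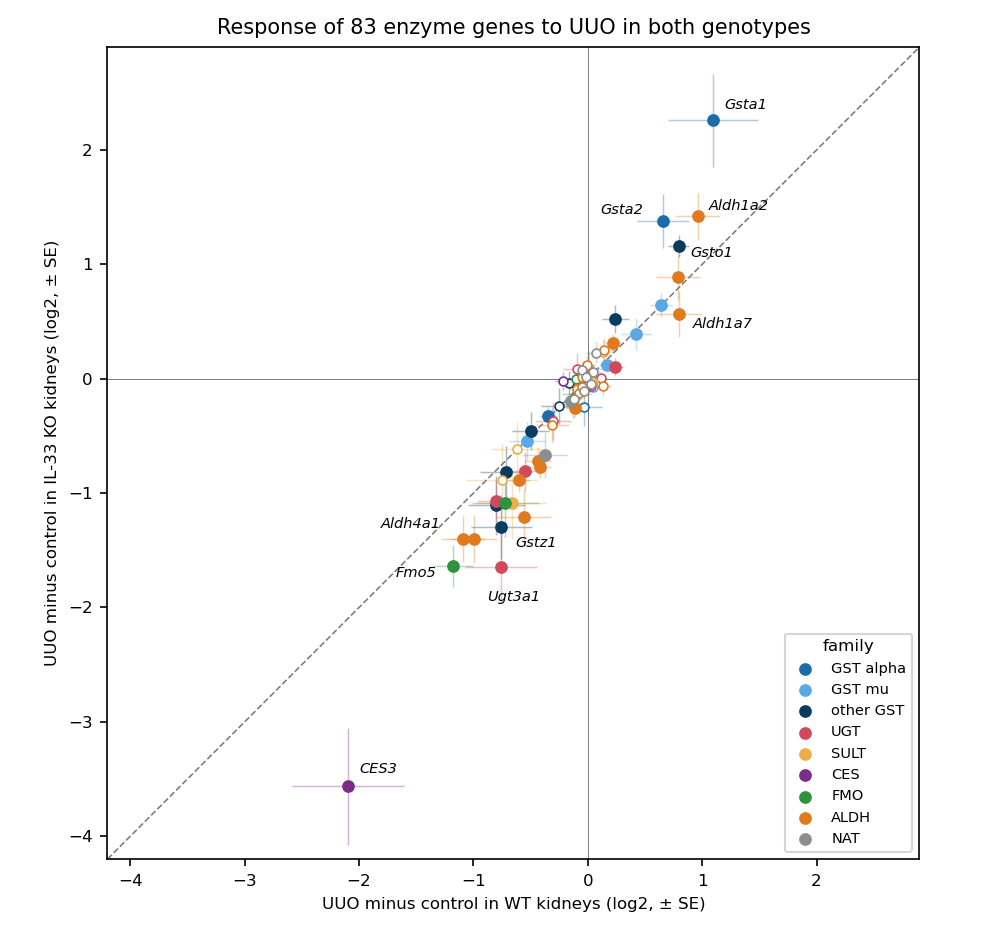
Log2 difference between UUO and control kidneys in WT (horizontal axis) and IL-33-deficient kidneys (vertical axis) for the 83 members, with error bars of 1 standard error, colour by family, filled points for genes called in either genotype and a dashed line where both are equal. CES3 lies farthest down (-2.10 and -3.56) and Gsta1 farthest up (1.09 and 2.26).

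The alpha class of glutathione S-transferases, which conjugate glutathione and reduce lipid hydroperoxides, split in direction. Gsta1 lay at 7.02 and 7.10 in WT controls and 7.05 and 7.01 in IL-33-deficient controls, close to the median of an array. After UUO it ran from 7.34 through a median of 8.09 to 9.07 in WT, and the IL-33-deficient kidneys 3821, 3822, 3897, 3898 and 3899 gave 9.01, 9.99, 9.77, 9.34 and 8.33 (the same order is used for that group throughout). Every obstructed kidney was above every control, and the genotypes overlapped. Gsta1 rose by 2.26 on the log2 scale (SE 0.41, limma adjusted p = 0.000965), 4.79-fold, in IL-33-deficient kidneys, and in WT it was 1.09 higher (SE 0.39, adjusted p = 0.0763). From controls this close to background the size of the rise depends on the background taken off: with the lowest intensity of each array subtracted and 16 added, it was 3.41 in IL-33-deficient and 1.90 in WT kidneys, where it passed (limma adjusted p = 0.0113). Gsta2, whose promoter resembles that of Gsta1, showed the same order. It lay at 10.07 and 9.86 in the WT controls, 9.51 and 9.74 in the IL-33-deficient controls, between 10.32 and 10.81 in WT obstructed kidneys (median 10.72), and at 10.20, 11.01, 11.30, 11.35 and 11.14 in IL-33-deficient obstructed kidneys. The obstructed kidneys were again all above the controls, and kidney 3821 was the lowest of them. Gsta2 rose 2.6-fold in IL-33-deficient kidneys (log2 1.38, SE 0.23, adjusted p = 0.000622) and was 0.66 higher in WT (SE 0.22, adjusted p = 0.0631). Without kidney 3820 both genes also passed in WT (Gsta1 log2 1.23, adjusted p = 0.0248, and Gsta2 0.69, 0.0475). Probes of these close paralogs may share transcripts, so the values of Gsta1 and Gsta2 may not be independent, which was not tested. Gsta4, which conjugates hydroxynonenal, a product of lipid peroxidation, fell slightly in both genotypes, with -0.34 in WT (SE 0.08, adjusted p = 0.00747) and -0.32 in IL-33-deficient kidneys (SE 0.08, adjusted p = 0.00823). Its controls lay at 8.14 to 8.30 and its obstructed kidneys at 7.75 to 8.09. The Gsta4 call was lost without control kidney 3811 in WT (adjusted p = 0.151) and without control 3813 or 3814 in IL-33-deficient kidneys (0.0664 and 0.0681).

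The mu class is encoded in a cluster on chromosome 3, and its members also went separate ways. Gstm5 rose by 0.64 (SE 0.10) in each genotype, 1.56-fold, with an adjusted p of 0.000791 in WT and 0.00039 in IL-33-deficient kidneys. The 4 controls lay at 11.20, 10.95, 11.03 and 11.06, the WT obstructed kidneys at 11.55 to 11.88 (median 11.71) and the IL-33-deficient obstructed kidneys at 11.49, 11.72, 11.63, 11.83 and 11.78, with no overlap between obstructed and control kidneys. Gstm2 fell 1.45-fold in WT (log2 -0.53, SE 0.16, adjusted p = 0.0331) and 1.46-fold in IL-33-deficient kidneys (-0.54, SE 0.16, adjusted p = 0.0269). Its controls lay at 10.96, 10.72, 11.08 and 10.67, above the WT (9.97 to 10.57, median 10.34) and the IL-33-deficient (10.46, 10.53, 10.30, 10.24 and 10.13) obstructed kidneys. The Gstm2 call was lost in WT without control 3811 or 3812 or kidney 3892 or 3894 (adjusted p 0.0538 to 0.316) and in IL-33-deficient kidneys without control 3813 or kidney 3898 or 3899 (0.051 to 0.359). Gstm1, the major mu transferase of mouse liver, and Gstm6 were called higher in WT, by 0.42 (SE 0.14, adjusted p = 0.0466) and 0.17 (SE 0.05, adjusted p = 0.0394). These calls did not survive the loss of several single kidneys, 6 of 9 for Gstm1 (adjusted p 0.0653 to 0.24) and 5 of 9 for Gstm6 (0.054 to 0.255), control kidneys 3811 and 3812 among them. In IL-33-deficient kidneys Gstm1 was 0.39 higher (SE 0.14, adjusted p = 0.0648) and passed without kidney 3821 (0.0144).

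Among the other classes, Gsto1 gave the clearest rise. It encodes the omega-class enzyme, which reduces dehydroascorbate and protein-bound glutathione. Gsto1 lay at 10.02 and 9.94 in WT controls, 9.54 and 9.71 in IL-33-deficient controls, 10.67 to 10.87 in WT obstructed kidneys (median 10.77) and 10.73, 10.57, 11.00, 10.95 and 10.70 in IL-33-deficient obstructed kidneys. All obstructed kidneys were above all controls, and the IL-33-deficient controls were the lowest of all. It rose 1.73-fold in WT (log2 0.79, SE 0.09, adjusted p = 0.000101) and 2.24-fold in IL-33-deficient kidneys (1.16, SE 0.10, adjusted p = 3.99e-06). Gstp1, the pi-class enzyme, rose 1.43-fold in IL-33-deficient kidneys (0.52, SE 0.12, adjusted p = 0.00648, but 0.142 without control 3813). In WT it was 0.24 higher (SE 0.12, adjusted p = 0.221), and passed without kidney 3820 (0.31, adjusted p = 0.0153). Its near-identical neighbour Gstp2 may share probes with it.

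Gstz1, Gstk1 and Gstt3 fell in 1 or both genotypes. Gstz1 is maleylacetoacetate isomerase, a step in tyrosine breakdown. It lay at 12.25 and 12.33 in WT controls, 12.14 and 12.17 in IL-33-deficient controls, 11.00 to 12.48 in WT obstructed kidneys (median 11.38) and 10.74, 10.65, 10.97, 10.85 and 11.10 in IL-33-deficient obstructed kidneys. Only the IL-33-deficient groups were apart, since a WT obstructed kidney reached the controls. Gstz1 fell 2.45-fold in IL-33-deficient kidneys (log2 -1.29, SE 0.28, adjusted p = 0.00341). In WT it differed by -0.76 (SE 0.27, adjusted p = 0.0742), and -0.91 without kidney 3820 (adjusted p = 0.00121). Gstk1, the kappa-class enzyme of mitochondria and peroxisomes, lay at 11.02 to 11.26 in the 4 controls, 10.08 to 11.36 in WT obstructed kidneys (median 10.21) and 10.02, 9.85, 10.03, 10.01 and 10.07 in IL-33-deficient obstructed kidneys. All 5 IL-33-deficient obstructed kidneys lay below all 7 WT ones. Gstk1 fell 1.74-fold in WT (-0.80, SE 0.25, adjusted p = 0.0403) and 2.16-fold in IL-33-deficient kidneys (-1.11, SE 0.26, adjusted p = 0.00545). Gstt3, a theta-class enzyme, fell 1.64-fold in WT (-0.72, SE 0.23, adjusted p = 0.044) and 1.76-fold in IL-33-deficient kidneys (-0.82, SE 0.24, adjusted p = 0.0199). The WT calls of Gstk1 and Gstt3 were each lost in 7 of 9 fits without 1 kidney (adjusted p 0.0592 to 0.219 and 0.0532 to 0.308), all but those without kidney 3818 or 3820. The IL-33-deficient calls were lost without control 3814 (Gstk1, 0.0665; Gstt3, 0.11) and, for Gstt3, without control 3813 (0.122). Gstt1, which was added after the values were seen, was called lower in WT alone (-0.50, SE 0.16, adjusted p = 0.0478) and was -0.46 in IL-33-deficient kidneys (SE 0.17, adjusted p = 0.0655).

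Among the 16 UDP-glycosyltransferases, 2 fell in WT and 3 in IL-33-deficient kidneys, where 8.22% and 11.2% of all genes did. All 3 belong to the small UGT3 and UGT8 families, which use other sugars than glucuronic acid. Ugt3a1, which transfers N-acetylglucosamine, lay at 12.84 and 12.98 in WT controls and 12.86 and 12.91 in IL-33-deficient controls. It ran from 11.64 to 12.89 in WT obstructed kidneys (median 12.08) and lay at 10.83, 10.55, 11.31, 11.46 and 12.05 in IL-33-deficient obstructed kidneys. The 2 IL-33-deficient kidneys of set 1 were the lowest of the 16. Ugt3a1 fell 3.13-fold in IL-33-deficient kidneys (log2 -1.64, SE 0.33, adjusted p = 0.00195), and in WT it differed by -0.76 (SE 0.31, adjusted p = 0.132, and 0.0369 without kidney 3820). Its chromosomal neighbour Ugt3a2 fell in both genotypes, with -0.55 in WT (SE 0.16, adjusted p = 0.0336) and -0.81 in IL-33-deficient kidneys (SE 0.17, adjusted p = 0.00274), or 1.75-fold in the latter. The controls lay at 13.82 to 14.06, the WT obstructed kidneys at 13.18 to 13.93 (median 13.41) and the IL-33-deficient ones at 12.98, 12.76, 13.06, 13.09 and 13.39. Ugt8a, the ceramide galactosyltransferase, fell 1.75-fold in WT (-0.81, SE 0.17, adjusted p = 0.00462) and 2.1-fold in IL-33-deficient kidneys (-1.07, SE 0.17, adjusted p = 0.000446). Its controls lay at 9.78 to 10.19, its WT obstructed kidneys at 9.02 to 9.88 (median 9.26) and its IL-33-deficient ones at 8.93, 8.90, 8.73, 8.83 and 9.08. In WT the call of Ugt8a was lost without control 3812 (adjusted p = 0.0827) and that of Ugt3a2 in 6 of 9 fits, those without control 3811 or 3812 or any WT kidney of set 2 (0.0536 to 0.207). Ugt1a2 was called higher in WT (0.24, SE 0.07, adjusted p = 0.0436) and was 0.10 higher in IL-33-deficient kidneys (SE 0.08, adjusted p = 0.439). The Ugt1a2 call was lost without control 3811 or 3812 or kidney 3818 or 3819 (0.0559 to 0.342). The Ugt1a genes share their last exons, so a probe there would not tell them apart. None of the 10 genes of the UGT2 family, which attach glucuronic acid to steroids and drugs, passed in either genotype, and their log2 differences ran from -0.37 to 0.11.

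Few sulfotransferases and N-acetyltransferases were called. In WT 0 of the 10 sulfotransferases and 0 of the 9 N-acetyltransferases were called by limma, where 8.22% of all genes fell and 6.97% rose. At an unadjusted p under 0.05 there were 3 and 1 of them, against 4716 of all 18132 genes. In IL-33-deficient kidneys 1 sulfotransferase and 2 N-acetyltransferases fell, where 11.2% of all genes did. In families this small such counts cannot be told apart from those shares. Sult1d1, which sulfates catecholamines, lay at 11.27 and 11.14 in WT controls, 11.29 and 11.06 in IL-33-deficient controls, 9.91 to 11.51 in WT obstructed kidneys (median 10.38) and 10.43, 10.21, 9.86, 10.03 and 9.92 in IL-33-deficient obstructed kidneys. The IL-33-deficient groups were apart and the WT groups overlapped. It fell 2.12-fold in IL-33-deficient kidneys (log2 -1.09, SE 0.32, adjusted p = 0.0216), but the adjusted p was 0.173 without control 3813 and 0.0804 without control 3814. In WT it differed by -0.67 (SE 0.30, adjusted p = 0.178), and -0.83 without kidney 3820 (adjusted p = 0.014). Nat2, an arylamine N-acetyltransferase, fell by 0.66 in IL-33-deficient kidneys (SE 0.20, adjusted p = 0.027). The controls of that genotype lay at 9.43 and 8.89 and the obstructed kidneys at 8.54, 8.62, 8.33, 8.53 and 8.45, and the call was lost without control 3813 (adjusted p = 0.378) or kidney 3897 (0.0544). Naa60, which acetylates the N-terminus of membrane proteins, was called lower there (-0.19, SE 0.07, adjusted p = 0.0461), a call that held in 1 of 7 fits without 1 kidney (0.0513 to 0.236 in the others).

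CES3 showed the largest fall of the 83 genes. Carboxylesterases hydrolyse ester drugs and lipid esters. CES3 lay at 13.04 and 13.10 in WT controls and 12.84 and 13.02 in IL-33-deficient controls. It ran from 9.86 to 12.49 in WT obstructed kidneys (median 10.82) and lay at 8.47, 8.96, 9.62, 9.66 and 10.13 in IL-33-deficient obstructed kidneys. Every obstructed kidney was below every control, and the 2 IL-33-deficient kidneys of set 1 were the lowest. CES3 fell 4.27-fold in WT (log2 -2.10, SE 0.49, adjusted p = 0.00922) and 11.8-fold in IL-33-deficient kidneys (-3.56, SE 0.51, adjusted p = 0.000172). The WT call was lost without control 3811 (adjusted p = 0.0837) or 3812 (0.104), with the fall at -2.12 and -2.07. The other 3 carboxylesterases, Ces1g, Ces2a and Ces2e, were dim and were not called in either genotype. Ces1f is on the array under another symbol and so is no member. Its row fell too, with -1.36 in WT (SE 0.37, adjusted p = 0.0217) and -2.40 in IL-33-deficient kidneys (SE 0.39, adjusted p = 0.000407).

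All 5 flavin-containing monooxygenases had lower means after UUO in both genotypes, where 9133 (WT) and 9111 (IL-33-deficient) of all 18132 genes did. The calls were 1 in WT (Fmo5) and 2 in IL-33-deficient kidneys (Fmo5 and Fmo1), where 8.22% and 11.2% of all genes fell. The family medians were -0.13 and -0.22, and the smallest differences were -0.10 and -0.01. Fmo5, an atypical member that inserts oxygen into ketones, lay at 8.74, 8.72, 8.89 and 8.88 in the 4 controls, 7.32 to 8.25 in WT obstructed kidneys (median 7.42) and 7.36, 7.15, 7.22, 7.13 and 7.39 in IL-33-deficient obstructed kidneys. Obstructed and control kidneys did not overlap, and kidney 3820 was the highest of the obstructed ones. It fell 2.27-fold in WT (log2 -1.18, SE 0.17, adjusted p = 0.000601) and 3.11-fold in IL-33-deficient kidneys (-1.64, SE 0.18, adjusted p = 3.22e-05). With the lowest intensity of each array subtracted the differences were -1.72 and -2.46. Fmo1, the main monooxygenase of the mouse kidney, lay at 13.43 and 13.18 in WT controls, 13.05 and 13.10 in IL-33-deficient controls, 11.94 to 13.50 in WT obstructed kidneys (median 12.51) and 11.66, 11.66, 12.09, 12.14 and 12.42 in IL-33-deficient obstructed kidneys. It fell 2.12-fold in IL-33-deficient kidneys (-1.08, SE 0.30, adjusted p = 0.0177), with an adjusted p of 0.103 and 0.113 without control 3813 and 3814. In WT Fmo1 differed by -0.72 (SE 0.29, adjusted p = 0.122), and -0.87 without kidney 3820 (adjusted p = 0.00941).

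Of the 19 aldehyde dehydrogenases 5 fell and 4 rose in WT (8.22% and 6.97% of all genes), and 7 fell and 3 rose in IL-33-deficient kidneys (11.2% and 10.6% of all genes). Several of the lowered ones act in the breakdown of amino acids. Aldh4a1 completes the breakdown of proline to glutamate. It lay at 12.83 and 12.79 in WT controls, 12.96 and 12.83 in IL-33-deficient controls, 11.38 to 12.29 in WT obstructed kidneys (median 11.61) and 11.47, 11.46, 11.45, 11.40 and 11.68 in IL-33-deficient obstructed kidneys, with no overlap between obstructed and control kidneys. Aldh4a1 fell 2.13-fold in WT (log2 -1.09, SE 0.19, adjusted p = 0.00167) and 2.64-fold in IL-33-deficient kidneys (-1.40, SE 0.20, adjusted p = 0.000172). Aldh18a1, which catalyses the first steps of the opposite route, proline synthesis from glutamate, rose. Its 4 controls lay at 7.16 to 7.29, its WT obstructed kidneys at 7.33 to 8.41 (median 7.95) and its IL-33-deficient ones at 7.96 to 8.44, again with no overlap. Aldh18a1 rose 1.73-fold in WT (0.79, SE 0.19, adjusted p = 0.0121) and 1.85-fold in IL-33-deficient kidneys (0.89, SE 0.20, adjusted p = 0.00446). Its call was lost in WT without control 3811 (0.0933) or 3812 (0.124) and in IL-33-deficient kidneys without control 3813 (0.0567). With the lowest intensity of each array subtracted the rise was 1.37 and 1.49.

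Aldh8a1, an enzyme of tryptophan breakdown, fell 1.99-fold in WT (log2 -0.99, SE 0.20, adjusted p = 0.00391, and 0.0687 without control 3811) and 2.64-fold in IL-33-deficient kidneys (-1.40, SE 0.21, adjusted p = 0.000237). The controls lay at 9.92 to 10.14, the WT obstructed kidneys at 8.55 to 9.46 (median 8.99) and the IL-33-deficient ones at 8.73, 8.39, 8.55, 8.44 and 8.98. Obstructed and control kidneys were thus apart. Aldh6a1, the methylmalonate semialdehyde dehydrogenase of valine breakdown, fell 2.31-fold in IL-33-deficient kidneys (-1.21, SE 0.24, adjusted p = 0.00207, and 0.0678 without control 3813). In WT it differed by -0.56 (SE 0.23, adjusted p = 0.136, and 0.0451 without kidney 3820). Aldh5a1, which clears succinic semialdehyde from GABA, fell in WT (-0.43, SE 0.11, adjusted p = 0.0157) and in IL-33-deficient kidneys (-0.72, SE 0.12, adjusted p = 0.000427). Aldh16a1 fell in WT (-0.42, SE 0.09, adjusted p = 0.00748) and in IL-33-deficient kidneys (-0.77, SE 0.10, adjusted p = 8.25e-05). In WT the call of Aldh5a1 was lost without control 3811 (adjusted p = 0.0728) or 3812 (0.195) and that of Aldh16a1 without control 3812 (0.133). Aldh3a2, the fatty aldehyde dehydrogenase, was singled out after its values were seen and fell in WT (-0.60, SE 0.10, adjusted p = 0.00126) and in IL-33-deficient kidneys (-0.89, SE 0.10, adjusted p = 4.8e-05). Aldh2, the mitochondrial acetaldehyde dehydrogenase, likewise singled out, was called lower in IL-33-deficient kidneys (-0.26, SE 0.08, adjusted p = 0.0265). That call was lost without control 3813 or 3814 or kidney 3822 (0.0512 to 0.199). In WT Aldh2 differed by -0.12 (SE 0.07, adjusted p = 0.389), and 0.0475 was its adjusted p without kidney 3820.

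Aldh1a2, another raised member, makes retinoic acid from retinal. It lay at 7.20 and 7.10 in WT controls, 7.01 and 7.12 in IL-33-deficient controls, 7.42 to 8.47 in WT obstructed kidneys (median 8.25) and 8.70, 8.59, 8.49, 8.43 and 8.25 in IL-33-deficient obstructed kidneys. All obstructed kidneys were above all controls. It rose 1.95-fold in WT (log2 0.96, SE 0.20, adjusted p = 0.00439, and 0.0757 without control 3812) and 2.68-fold in IL-33-deficient kidneys (1.42, SE 0.21, adjusted p = 0.000192). With the lowest intensity of each array subtracted the rise was 1.64 and 2.37. Aldh1a7, a neighbour and close relative of Aldh1a1, rose 1.74-fold in WT (0.80, SE 0.20, adjusted p = 0.0126), with 0.0967 and 0.125 without control 3811 and 3812. In IL-33-deficient kidneys it was 0.57 higher (SE 0.20, adjusted p = 0.0628). Its controls lay at 7.45 to 7.60, its WT obstructed kidneys at 7.93 to 8.87 (median 8.46) and its IL-33-deficient ones at 7.93, 7.91, 7.89, 8.15 and 8.28, so that WT kidneys tended to be the higher. Aldh1l2, the mitochondrial formyltetrahydrofolate dehydrogenase, was called higher by 0.22 in WT (SE 0.07, adjusted p = 0.0499) and 0.31 in IL-33-deficient kidneys (SE 0.07, adjusted p = 0.0063). Its WT call was lost in 6 of 9 fits without 1 kidney, controls 3811 and 3812 among them (0.0552 to 0.376), and its IL-33-deficient call without control 3814 (0.081).

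**Figure D3:**
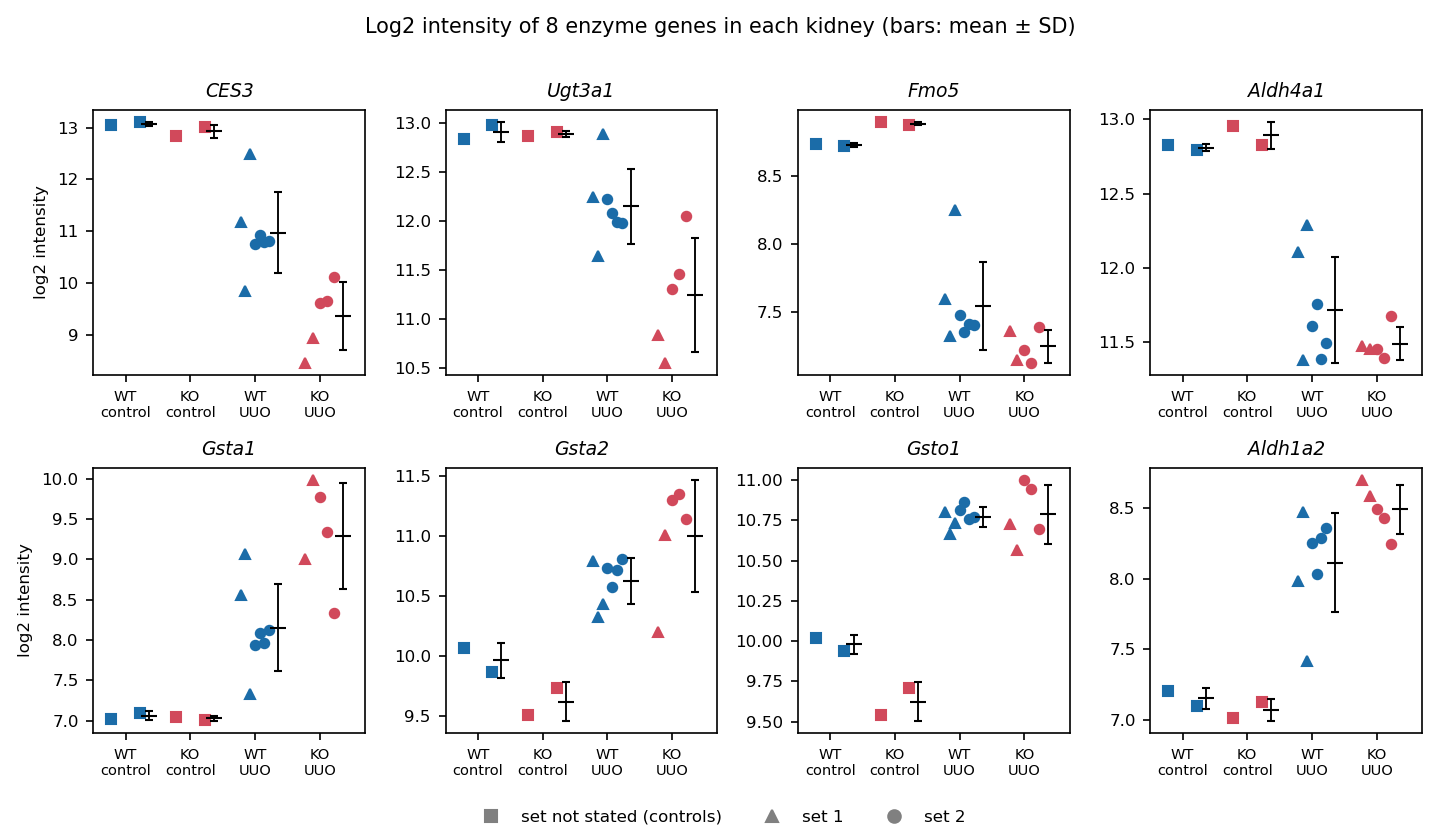
Log2 intensity of 8 members in each of the 16 kidneys, by group, with 1 point per kidney (squares for controls, triangles for set 1, circles for set 2) and bars at the mean ± SD. For CES3, Fmo5 and Aldh4a1 every obstructed kidney lies below every control, for Ugt3a1 a WT kidney of set 1 at 12.89 reaches the controls, and for Gsta1, Gsta2, Gsto1 and Aldh1a2 every obstructed kidney lies above every control.

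Other genes of the same pathways were counted from lists. Of 11 measured genes of glutathione supply and use, 2 fell and 1 rose in WT and 3 fell and 1 rose in IL-33-deficient kidneys: Gss, glutathione synthetase, was -0.56 and -0.67, Ggct, which breaks down gamma-glutamyl peptides, -1.11 and -1.30, and Mgst1, the microsomal transferase, 1.65 and 2.21 (log2 differences in WT and in IL-33-deficient kidneys), and Ggt1 (-0.74) passed in the latter alone. None of the 4 genes that make and move UDP-glucuronate passed in either genotype. Of 7 genes of sulfate activation and hydrolysis 2 fell in WT and 3 in IL-33-deficient kidneys, where 1 rose, and Papss1, which makes the sulfate donor, was -0.83 and -0.82. Bpnt1 was -0.48 and -0.53, and Papss2 (-0.65) and Arsa (0.49) passed in IL-33-deficient kidneys alone. Of 10 genes of methyl, glycine and acyl-CoA conjugation 4 fell in each genotype and 1 rose in IL-33-deficient kidneys. Inmt, an indolethylamine methyltransferase, was at -3.80 and -4.93, and Acsm2, Acsm3 and Acsm5, which activate medium-chain acids, were at -0.75, -0.80 and -0.99 in WT. Nnmt, the nicotinamide methyltransferase, was the raised one (0.72). Of 9 other hydrolases 2 fell in WT and 3 in IL-33-deficient kidneys, the aminoacylases Acy1 (-1.43 and -2.06) and Acy3 (-1.65 and -2.67) in both and the epoxide hydrolase Ephx2 (-0.90) in the latter alone.

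Of 15 genes of alcohol and aldehyde oxidation and reduction 3 fell and 4 rose in WT (8.22% and 6.97% of all genes). In IL-33-deficient kidneys 4 fell and 4 rose (11.2% and 10.6% of all genes). The raised ones were the aldo-keto reductase Akr1b8 (1.55 and 1.85), the carbonyl reductase Cbr1 (1.15 and 0.90), xanthine dehydrogenase Xdh (0.67 and 0.88) and the quinone reductase Nqo1 (0.43 and 0.49). Akr1a4, Akr1c21 and Adhfe1 fell in both genotypes, and Por in IL-33-deficient kidneys alone. Among 13 transcription factors that act on these families 1 fell and 2 rose in WT and 2 fell and 2 rose in IL-33-deficient kidneys. Counts this small cannot be told apart from those shares. Hnf4a, a factor of the differentiated tubule and liver, fell in both (-0.83 in WT), Nfe2l2, which encodes Nrf2, rose by 0.51 and 0.54, and Cebpb rose by 1.65 and 2.12. Rxra (-0.27) fell in IL-33-deficient kidneys alone. No gene of these 7 lists was called between the genotypes, where 0.011% of all genes were after UUO.

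The genotypes were compared first in control kidneys. There 0 of the 83 members, and 0% of all genes, passed an adjusted p of 0.05 (limma), and 2 members, Gsto1 and Ces1g, had an unadjusted p under 0.05, against 3.66% of all genes. Gsto1 differed by -0.35 in IL-33-deficient from WT controls (SE 0.11) and Ces1g by -0.21 (SE 0.09). With 2 kidneys a group, differences of this size could not be resolved.

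After UUO the comparison used the 12 obstructed kidneys and the study's own threshold, namely p under 0.05 unadjusted, under 0.25 after adjustment, and more than 1.3-fold. The study set its IL-33-deficient kidneys against fewer WT arrays, which the sources used here do not name, so the arrays compared here are not the same. Of the 83 members 0 passed, where 0.00552% of all genes were lower and 0.00552% higher, or 0.011% in all. At an unadjusted p under 0.05 there were 19, against 10.3% of all genes, of which 15 were lower in IL-33-deficient kidneys (4.78% of all genes) and 4 higher (5.55%). The signs leaned the same way, with 63 of the 83 differences below 0 and 20 above, where 8725 of all 18132 were below 0, and a median of -0.03 where that of all genes rounded to 0. Of these 63, 24 belonged to the 32 dimmer members, whose median was -0.01. Among the 51 brighter members 39 were below 0, with a median of -0.11, where 4201 of the 9066 brighter genes were. Among the 4 alpha-class transferases 3 were higher, Gsta1 (1.13), Gsta2 (0.37) and Gsta4 (0.06), where 9407 of all 18132 genes were. Gsta3 was lower (-0.36). Of the 4, Gsta1 and Gsta3 had an unadjusted p under 0.05.

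The 3 smallest p-values in the lower direction belonged to CES3, Aldh5a1 and Ugt3a1. These members, and Gsta1, were picked by their p in this comparison, so their values by set are a description. CES3 differed by -1.61 in IL-33-deficient from WT obstructed kidneys (SE 0.38, adjusted p = 0.311). Within set 1 the difference was -2.47 and within set 2 it was -1.02, and in each set the genotypes did not overlap. Ugt3a1 differed by -0.91 (SE 0.25, adjusted p = 0.311), by -1.57 in set 1 and -0.46 in set 2, where the genotypes overlapped. Aldh5a1 differed by -0.33 (SE 0.09, adjusted p = 0.311). Its WT obstructed kidneys lay at 8.82 to 9.34 (median 9.03) and the IL-33-deficient ones at 8.54, 8.61, 8.80, 8.81 and 8.70, so the genotypes did not overlap. Aldh5a1 and Gstk1 were the 2 members with every IL-33-deficient obstructed kidney below every WT one (2.41%, against 0.336% of all genes), and no member lay wholly above (0.419% of all genes). Among the members with higher means Gsta1 was 1.13 higher (SE 0.31, adjusted p = 0.311), by 1.18 in set 1 and 1.12 in set 2, where the genotypes did not overlap. Aldh1a2 was 0.38 higher (SE 0.15, adjusted p = 0.434) and Aldh1l2 0.15 higher (SE 0.05, adjusted p = 0.385), by 0.69 and 0.23 in set 1 and 0.16 and 0.09 in set 2.

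The members with a p under 0.05 and lower in IL-33-deficient kidneys also included Gstz1 (-0.67, SE 0.21, adjusted p = 0.328), Ugt8a (-0.43, SE 0.12, adjusted p = 0.32), Ugt3a2 (-0.44, SE 0.13, adjusted p = 0.32), Aldh8a1 (-0.45, SE 0.16, adjusted p = 0.359) and Fmo1 (-0.60, SE 0.23, adjusted p = 0.402). Among obstructed kidneys the summed proximal tubule markers were lower in the IL-33-deficient group (20938 to 32197, against 27271 to 62374), and the 5 summed fibroblast and smooth muscle markers were higher (4670 to 5441, against 2677 to 4323, the lowest being kidney 3820). Of the single markers, 0 of the 8 and 1 of the 5 (Acta2) passed the same threshold. Their part in these differences was not tested. Kidney 3820 was the WT obstructed kidney nearest to the controls for 16 of the 21 genes that fell, and 4 of the 8 that rose, in IL-33-deficient kidneys.

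The absence of calls after UUO depended on the kidneys and the model. Without kidney 3819 there were 10 lower and 2 higher members past the threshold, where all genes gave 221 and 88. Without kidney 3899 there were 3 lower (CES3, Ugt3a1 and Ugt3a2) and 1 higher (Gsta1), where all genes gave 66 and 28. Without kidney 3820 CES3 alone was lower (-1.36, limma adjusted p = 0.23), where all genes gave 20 lower and 11 higher. In the model of all 16 arrays 5 were lower (CES3, Gstz1, Ugt3a1, Ugt3a2 and Ugt8a) and 1 was higher (Gsta1). All genes gave 93 and 34 in that model. In set 2 alone CES3 (limma adjusted p = 0.0314) and Sult1d1 (0.147) were lower and Gsta1 (0.188) and Gsta2 (0.0434) higher. All genes gave 56 lower and 25 higher in set 2.

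**Figure D4:**
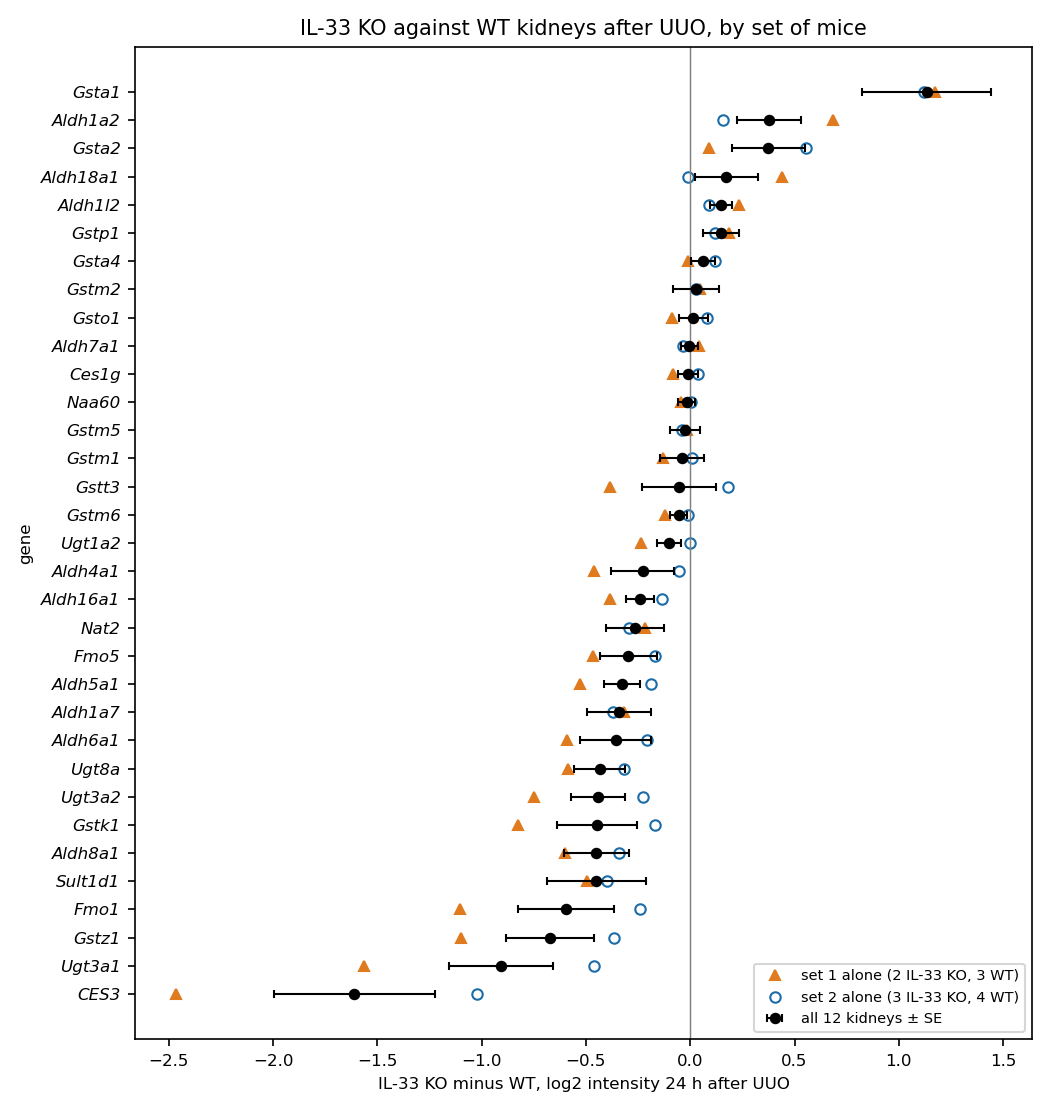
Log2 difference between IL-33-deficient and WT obstructed kidneys for named members, over all 12 kidneys with bars of 1 standard error (black), in set 1 alone (triangles) and in set 2 alone (open circles). CES3 is lower in both sets (-2.47 and -1.02), and Gsta1 is higher in both (1.18 and 1.12).

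Whether the response to UUO itself differed between the genotypes was tested as the interaction over all 16 arrays. No member and 0% of all genes passed (limma, adjusted p under 0.05), and 3 members had an unadjusted p under 0.05, against 4.74% of all genes: Gsto1, whose rise was 0.37 larger in IL-33-deficient kidneys (SE 0.13, adjusted p = 0.973), Aldh16a1, whose response differed by -0.35 (SE 0.14), and Gsta2. For CES3 the responses differed by -1.47 (SE 0.70). Genes called in a single genotype, such as Gstz1, Ugt3a1, Gsta1 and Fmo1, are therefore not shown to respond differently in the other.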

How the data were processed

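Kidney RNA was measured on Illumina BeadChips, 1 array for each of 16 kidneys, and arrays were grouped by the genotype, treatment and set of mice in the sample labels. Scanner data were read by the authors with beadarray, and the deposited file gives a linear intensity for each of 18132 genes; the submitters' processing notes name BeadStudio 2. How background was corrected, and how several probes were joined, is not given in the sources used here. Equally ranked values varied over the arrays by 0.706% (median) and never more than 9.11%, so the deposited intensities had already been made alike. No pair of arrays was identical. The file has no detection p-values and no read depth, so the number of arrays limits the precision.

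From the deposited intensities, log2 values were taken after quantile normalization, and limma 3.58.1 (lmFit, eBayes) in R 4.3.3 was fitted to all genes with Benjamini-Hochberg adjustment over all of them. The response to UUO, the control comparison and the interaction came from a model of 4 groups and 16 arrays at an adjusted p of 0.05. IL-33-deficient and WT obstructed kidneys were compared over 12 arrays at the study's threshold (unadjusted p under 0.05, adjusted p under 0.25, fold change above 1.3). The WT arrays differ from the smaller, unnamed selection of the study. Exact permutation tests over the obstructed kidneys were run for named members and are not reported, since these were picked by their p in the same comparison. Tables and figures were made in Python 3.11.15 with numpy 2.4.6, pandas 2.3.3, scipy 1.17.1 and matplotlib 3.10.9, and the fits were tested on simulated data.

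The members, the gene and marker lists and the rule for named genes were chosen with earlier results of these data known. That rule takes, in each family, up to 3 members with the largest fall and 3 with the largest rise among those called after UUO, the 3 with the smallest p in each direction between genotypes and for the control and interaction comparisons, the carboxylesterases and UDP-glycosyltransferase in the study's supplementary list of genes, and Il33. Gstt1, Aldh2 and Aldh3a2 were added after their values were seen, and the values of 1 member are not reported here. Promoters are from RefSeq (GRCm38.p6) for the 66 members that the table held. Alternatives changed the normalization, background, prior variance, array weights, dim genes, sets, samples in the fit and thresholds, and left out each array in turn.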

Additional observations from a re-analysis of the deposited data

Results flagged for a closer look

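Within the groups of 5 or 7 obstructed kidneys, 66 groups of values (33 genes in each genotype) were searched for a single kidney far from the rest of its group, and 4 were found, where chance gives about 1 in 20. WT kidney 3820 was responsible for a pair of them. There Fmo5 lay at 8.25, above the other WT obstructed kidneys (7.32 to 7.60), and Gstp1 at 10.71, below them (11.06 to 11.29). Among IL-33-deficient obstructed kidneys, Gstk1 lay at 9.85 in kidney 3822 (10.01 to 10.07 in the others), and Aldh4a1 at 11.68 in kidney 3899 (11.40 to 11.48). Kidneys 3820 and 3899 also had the highest summed proximal tubule markers of their groups, 62374 and 32197, and the part of these in the values was not tested.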

How the results depend on the processing

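The table of deposited intensities holds 1 value per gene and no detection calls, so dim genes, 32 of the 83, could show only compressed changes, and 2 controls a group left the calls open to either control. No paired analysis was possible because the labels give no replicate number that groups share. In WT kidneys the 14 lower members became 23 with array weights, 0 in set 1 alone and 24 in set 2 alone. They became 8 with only the compared groups in the fit, 8 at a fold change of 1.5 and 8 at an adjusted p of 0.01. Without both kidneys 3818 and 3820, a choice made after seeing the data, they became 24. In the same order the 1491 lower of all genes became 2102, 107, 2160, 969, 498, 730 and 2107. The 9 higher members became 1 in set 1 alone, 5 with only the compared groups, 5 at a fold change of 1.5 and 3 at an adjusted p of 0.01. The 1263 higher of all genes became 81, 809, 468 and 631. In IL-33-deficient kidneys the 21 lower members became 13 in set 1 alone, and the 2039 lower of all genes became 1144. Between IL-33-deficient and WT obstructed kidneys 0 lower and 0 higher members became 2 and 1 with array weights (63 and 17 of all genes). Over the brighter 50% of genes they became 6 and 1 (123 and 45 of those genes). In set 2 alone they became 2 and 2 (56 and 25 of all genes). In the model of 4 groups they became 5 and 1 (93 and 34). Without kidneys 3818 and 3820 there were 2 lower (32 of all genes). Leaving out each array in turn gave 5 to 24 lower and 2 to 12 higher members in WT. Over all genes it gave 442 to 1867 lower and 367 to 1711 higher there. In IL-33-deficient kidneys it gave 13 to 21 lower and 6 to 9 higher members (1221 to 1960 and 1055 to 1878 of all genes). Between the genotypes after UUO it gave 0 to 10 lower and 0 to 2 higher (1 to 221 and 0 to 88). In the control comparison and for the interaction it gave 0 members. For the fold changes of single named members, 1143 alternatives kept the direction and the side of the threshold, 68 brought a call, 141 lost it and 0 reversed the sign. The cause of these changes was not tested.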
